A study of Mus musculus with 6 samples.

Results

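The respiratory chain genes were taken from the mRNA table by symbol: subunits of complex I (Nduf), complex II (Sdh), complex III (Uqcr and Cyc1), complex IV (Cox4 to Cox8) and the ATP synthase (Atp5), cytochrome c (Cycs), and the mRNAs of the mitochondrial genome (mt-Nd, mt-Cytb, mt-Co and mt-Atp). The rule found 99 genes, carried by 194 transcripts, among the 21912 gene symbols of the table, and used no measured value. Of these, 86 are nuclear and 13 are mitochondrial. The study sequenced total RNA from mouse macrophages in culture, with 3 libraries of a group labelled M (M 1 to M 3) and 3 of a control group (control 1 to control 3). The series concerns oxidised low-density lipoprotein (ox-LDL), the particle whose uptake turns macrophages into foam cells, and M was read as the ox-LDL group because only the other libraries are called control. The labels do not spell M out, and their extraction text calls the cells ox-LDL induced in all 6 libraries. The labels give no strain, macrophage source, dose or time. They also do not say whether libraries of a group stem from independent cultures, and the p-values therefore reflect variation between libraries, which may be technical.

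Complexes I and II pass electrons from NADH and succinate to coenzyme Q, complex III passes them on to cytochrome c, and complex IV passes them to oxygen. Complexes I, III and IV pump protons across the inner mitochondrial membrane, and complex V, the ATP synthase, uses the return flow to make ATP. Complex II is encoded wholly in the nucleus, while the other complexes combine nuclear subunits with a few encoded in mitochondrial DNA. In macrophages the balance between this chain and glycolysis is known to shift with activation.

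Values are FPKM, a unit that corrects fragment numbers for transcript length and library size, and the transcripts of a symbol were summed. Summed FPKM lay between 375467 and 390581 per library, and the depth in reads is not known. Macrophage markers were abundant, with Lyz2 averaging 6069 FPKM in M and 4610.4 FPKM in control libraries and Csf1r 523 and 475 FPKM. Of the 9 identity markers in the table, 8 passed the filter on low values, and Mertk did not. Among the 8, 5 were called higher in M, Itgam, Cd14, Adgre1, Fcgr1 and Lyz2, and 0 lower. Over all genes tested, 21.2% were called higher and 21.9% lower. The marker list summed to 7577 to 7865 FPKM in M and 5847 to 6267 FPKM in control libraries. With quantile normalization Lyz2 (adjusted p = 0.203) and Adgre1 (0.0771) were not called, and from the most abundant transcript alone Itgam (0.474) and Adgre1 (0.600) were not. All 5 markers of T and NK cells were listed at 0 in every library, and the summed markers of B cells, neutrophils, fibroblasts, endothelium and epithelium, and red cells stayed below 1 FPKM in each library. Neutrophil markers summed to 0.541 to 0.870 FPKM in M and 0 to 0.191 FPKM in control libraries. Markers of dendritic cells summed to 1.59 to 2.05 FPKM in M and 2.56 to 3.44 FPKM in control libraries. The part of these differences in the results was not tested.

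Libraries differed within their groups over the respiratory chain. Control 2 was the lowest of the 6 libraries for 32 of the 80 nuclear genes tested (40.0%), where it was the lowest for 18.7% of all genes tested. Control 3 was the highest for 11 of the 13 mitochondrial genes, against 15.6% of all genes tested. M 3 was the lowest for 8 of 13, against 19.3% of all genes tested. The SD on the log2 scale was larger among control than among M libraries for 60 of 80 nuclear genes (75%) and 11 of 13 mitochondrial genes, against 50.8% of all genes tested. The calls of named genes, the member counts and the mitochondrial median are given below with single libraries left out. The shares of all mRNA FPKM are given with the range over such fits.

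A minority of respiratory chain genes differed between M and control libraries, most of them lower in M and none by as much as 1 on the log2 scale. Of the 99 genes, 93 averaged at least 1 FPKM over the 6 libraries and were tested with limma on log2(FPKM + 1), together with all 10390 genes that passed the same filter. At a Benjamini-Hochberg adjusted p under 0.05, 19 of the 93 were called (20.4%), 3 higher and 16 lower in M. Over all tested genes 43.1% were called, 21.2% higher and 21.9% lower. The share called among the respiratory chain genes was below that of all genes, and 17.2% of them were called lower. After rescaling to a common total without mitochondrial transcripts, 7 members were higher and 14 lower. That was 7.53% and 15.1% of the members, against 24.0% and 19.3% of all genes under the same setting. No member changed by 1 or more on the log2 scale, where 2.48% of all genes did. The median log2 fold change was -0.06 over the 93 genes and -0.01 over all genes. In 27 of the 93 genes the M and control values did not overlap, where 55.7% of all genes had no overlap.

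The count of called members depended on single libraries. It was 11 without control 1 (11.8%, against 36.4% of all genes), 30 without control 2 (32.3%, against 39.3%) and 12 without M 2 (12.9%, against 35.4%). Without control 2, 28 of the 30 were lower in M. That was 30.1% of the members, against 20.2% of all genes, so the share called lower was then above that of all genes and not below it. The 30 included 16 of the original 19 calls. The bulk measurement cannot tell less RNA per cell from fewer cells that make it.

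**Figure D1:**
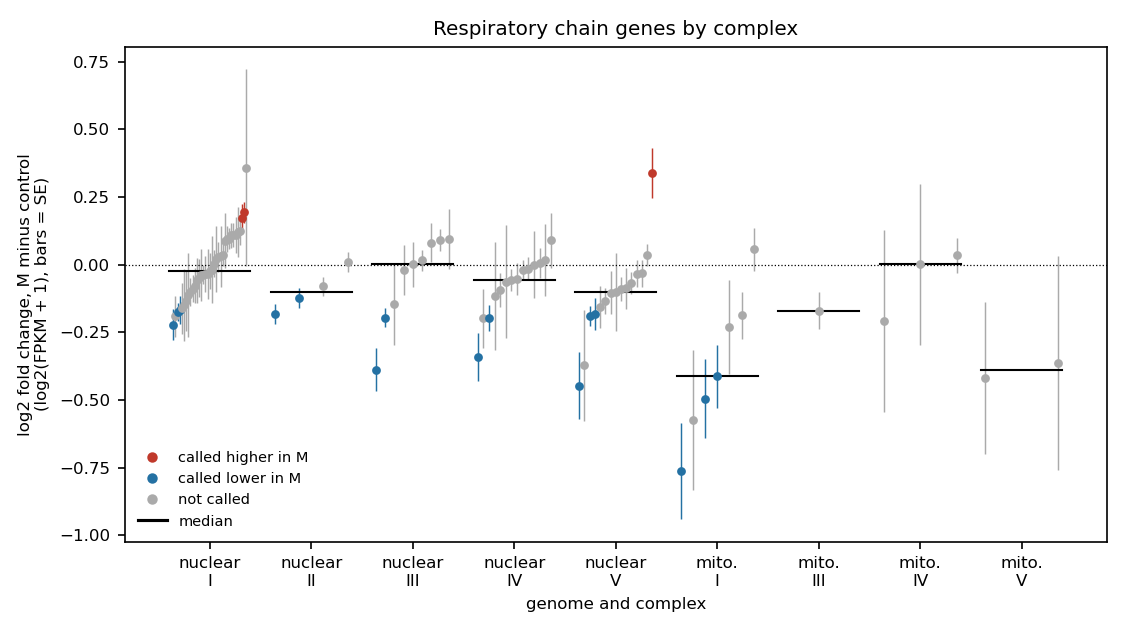
Log2 fold change (M minus control, on the log2(FPKM + 1) scale) of the tested genes of complexes I to V, by genome and complex, with bars for the SE and a black line for the median of each class. Cycs, Atp5s and Atp5sl are not drawn. With these genes counted, 72 of all 80 nuclear genes tested had a value within 0.2 of 0. The mitochondrial complex I genes have the lowest class median (-0.41).

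Nuclear complex I genes went both ways. Of 35 tested, 2 were called higher and 3 lower in M, against 21.2% and 21.9% of all genes. The median was -0.02, with a range of -0.22 to 0.36. Without control 2 the calls of Ndufb6 and Ndufb11 were lost, and Ndufa1, Ndufa3 and Ndufb10 were called lower in M. The 7 nuclear core subunits, which carry the flavin and the iron-sulfur clusters or bind the quinone, had 1 lower call and 0 higher, and the 28 accessory subunits had 2 of each.

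Ndufs8, a core subunit that holds iron-sulfur clusters (ENSMUSG00000059734), had 57.0, 55.9 and 56.2 FPKM in M 1 to 3, against 71.2, 66.5 and 60.4 FPKM in control 1 to 3. All M values lay below all control values, and the M libraries were close together. It fell by 0.22 on the log2 scale (± 0.0582 SE, limma adjusted p = 0.0172), and the call was lost without M 2 (0.0537). Ndufb5, an accessory subunit of the membrane arm, had 48.4, 49.5 and 49.0 FPKM in M, against 55.0, 54.9 and 56.1 FPKM in control libraries. The groups were apart, and it fell by 0.17 on the log2 scale (± 0.0332 SE, limma adjusted p = 0.00418). Its most abundant transcript alone did not carry the call (adjusted p = 0.794).

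Ndufb9, another membrane arm subunit, had 73.3, 71.5 and 74.0 FPKM in M, against 62.3, 62.4 and 66.4 FPKM in control libraries. This rise of 0.19 ± 0.0395 SE (adjusted p = 0.00558) was called in all 14 alternative settings. Ndufb6, also of the membrane arm, had 63.4, 56.0 and 57.0 FPKM in M, against 52.1, 50.8 and 53.3 FPKM in control libraries, and rose by 0.17 (adjusted p = 0.0322). Ndufb11, of the same arm, had 57.8, 57.5 and 62.4 FPKM in M, against 65.0, 70.8 and 64.3 FPKM in control libraries, and fell by 0.17 (0.0319). Neither gene's groups overlapped, but the gaps were narrow. Ndufb6 was no longer called without control 1 (0.0767), control 2 (0.0844), control 3 (0.0523) or M 1 (0.0568), with quantile normalization (0.077), with no filter (0.0561) or from its most abundant transcript alone (0.0744). The Ndufb11 call was lost without control 1 (0.0517), control 2 (0.0803), M 1 (0.0862) or M 2 (0.104), after rescaling without mitochondrial transcripts (0.0831), with no filter (0.0553) or from its most abundant transcript alone (0.0588). It was also lost with the library number added to the fit as a replicate block (0.0572).

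Ndufb8, an abundant accessory subunit of the membrane arm, had 68.2, 68.8 and 78.9 FPKM in M, against 76.8, 68.7 and 73.7 FPKM in control libraries. These values overlapped, and the gene was not called (-0.02, adjusted p = 0.803). Ndufa12 had the largest positive estimate, but its values were spread over 19.3, 23.3 and 11.8 FPKM in M, against 20.2, 12.3 and 9.63 FPKM in control libraries. The groups overlapped throughout (log2 fold change 0.36 ± 0.363 SE, adjusted p = 0.475).

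**Figure D2:**
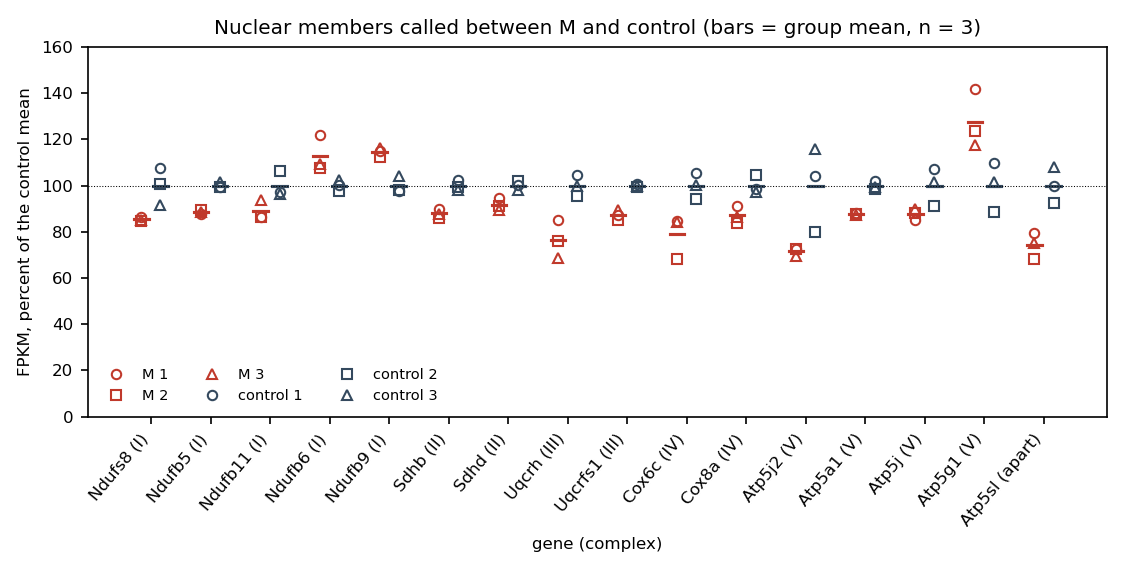
FPKM of the 16 called nuclear genes in each library as percent of the control mean, with M libraries in red on the left and control libraries in dark blue on the right of each gene and bars for group means. Values of 3 genes (Ndufb6, Ndufb9, Atp5g1) lie above the control values and those of 13 below, and no M value falls within the control range.

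Complex II is succinate dehydrogenase, shared with the Krebs cycle. Of its 4 genes, 2 were lower in M and 0 higher, against 21.9% and 21.2% of all genes. Sdhb, the iron-sulfur subunit (ENSMUSG00000009863), had 73.4, 70.2 and 71.6 FPKM in M, against 83.4, 80.9 and 80.1 FPKM in control libraries. The groups were well apart, and the fall of 0.18 on the log2 scale (± 0.0360 SE, adjusted p = 0.00489) was called in all 14 alternative settings. Sdhd, a membrane anchor, had 119, 115 and 113 FPKM in M, against 126, 128 and 123 FPKM in control libraries, a change of -0.12 ± 0.0379 SE (adjusted p = 0.0318). That call was lost without control 1 (0.0802), control 2 (0.0751), M 2 (0.1) or M 3 (0.0992), or after rescaling without mitochondrial transcripts (0.0911).

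Sdha, the flavin subunit that oxidises succinate, had 84.0, 85.4 and 82.3 FPKM in M, against 88.1, 87.2 and 91.0 FPKM in control libraries. Those groups did not overlap either, but the gene was not called (-0.08, adjusted p = 0.106), except with quantile normalization (0.0197). Sdhc, the other anchor, had 33.8, 32.6 and 33.3 FPKM in M, against 32.6, 33.7 and 32.6 FPKM in control libraries, with overlapping values. The summed FPKM of complex II was 0.0815%, 0.0797% and 0.0799% of the library total in M 1 to 3, against 0.0847%, 0.0869% and 0.0838% in control 1 to 3. Among the nuclear gene sums of complexes I to V, it was the only one whose groups did not overlap.

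In complex III, 2 of 9 nuclear genes were lower in M and 0 higher, against 21.9% and 21.2% of all genes. The median was 0.00. Without control 2 these calls were kept, and Uqcr11 was also called lower. Uqcrh, the hinge protein beside cytochrome c1 (ENSMUSG00000063882), had 147, 131 and 118 FPKM in M, against 179.8, 165 and 172 FPKM in control libraries. Every M value was below every control value. Its fall of 0.39 on the log2 scale (± 0.0780 SE, adjusted p = 0.00547) was called in all 14 alternative settings. Uqcrfs1, the Rieske iron-sulfur protein, had 77.0, 75.2 and 79.3 FPKM in M, against 89.1, 88.1 and 88.3 FPKM in control libraries. It changed by -0.20 ± 0.0351 SE (adjusted p = 0.00304), again in all 14 settings.

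The other catalytic nuclear subunit, cytochrome c1 (Cyc1), had 76.0, 75.7 and 78.7 FPKM in M, against 73.6, 68.8 and 73.8 FPKM in control libraries. Its M values were the higher ones, without passing the test (0.09, adjusted p = 0.111), although it passed after rescaling to a common total without mitochondrial transcripts (0.0411). Uqcrb, an accessory subunit with the highest estimate in the complex, had 50.2, 56.3 and 58.3 FPKM in M, against 50.3, 44.7 and 59.9 FPKM in control libraries, an overlap with control 2 lowest. The core proteins Uqcrc1 and Uqcrc2, which hold the complex together, had log2 fold changes of -0.02 and 0.02. Cytochrome c itself (Cycs), the mobile carrier to complex IV, had 21.7, 23.0 and 21.8 FPKM in M, against 22.3, 21.3 and 24.8 FPKM in control libraries. Those values overlapped (adjusted p = 0.655).

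In complex IV, 2 of 14 tested nuclear genes were lower in M and 0 higher, against 21.9% and 21.2% of all genes. The median was -0.06. Without control 2 these calls were kept, and Cox5b, Cox6a1 and Cox6a2 were also called lower, against 20.2% of all genes. Cox6c, a supernumerary subunit (ENSMUSG00000014313), had 110.2, 88.9 and 109.7 FPKM in M, against 137, 123 and 131 FPKM in control libraries. The groups did not overlap, and M 2 was the lowest library. The change was -0.34 ± 0.0890 SE (adjusted p = 0.0187), and it was not called without control 1 (0.0634), without control 3 (0.0553) or from the most abundant transcript alone (0.236). Cox8a, also a supernumerary subunit, had 259, 239 and 246 FPKM in M, against 279.9, 297 and 277 FPKM in control libraries. It changed by -0.20 ± 0.0495 SE (adjusted p = 0.0143), with no call without M 2 (0.0625) or with quantile normalization (0.464).

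Other abundant nuclear complex IV genes were not called. Cox4i1, the subunit that binds adenine nucleotides, had 349, 325 and 339.7 FPKM in M, against 372, 327 and 354 FPKM in control libraries. Cox5a averaged 243 ± 8.85 FPKM in M and 245 ± 4.24 FPKM in control libraries (SD, n = 3 each). Both pairs of groups overlapped. Cox6b1, which faces cytochrome c, had 168, 158 and 152 FPKM in M, against 177, 157 and 178 FPKM in control libraries. Cox7a2l, which joins complexes III and IV, had 177, 175 and 175 FPKM in M, against 187, 176 and 187 FPKM in control libraries. Neither was called, and in both control 2 was at the level of the M libraries. Control 2 stood apart for Cox6a1, with 107, 109 and 108 FPKM in M, against 118, 85.0 and 120.02 FPKM in control libraries. Cox6a1 was not called with all libraries (adjusted p = 0.924) and was called lower in M without control 2 (0.0217).

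**Figure D3:**
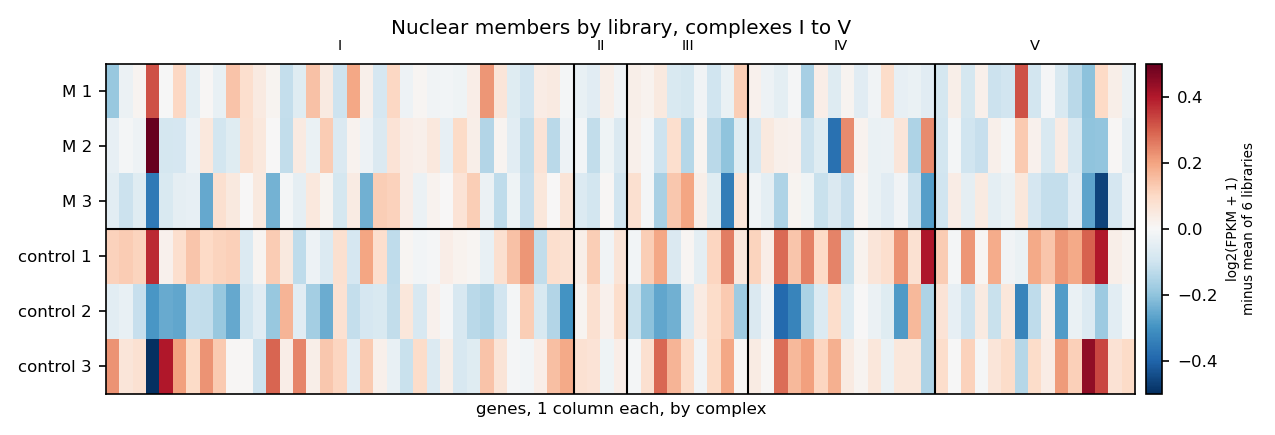
Log2(FPKM + 1) of the tested nuclear genes of complexes I to V in each library minus the gene's mean over the 6 libraries, with 1 column per gene, M libraries above the black line and control libraries below it. Control 2 is the lowest library for 16 of 35 genes in complex I, 5 of 9 in complex III, 4 of 14 in complex IV and 6 of 15 in complex V, and for 0 of 4 in complex II.

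Several complex IV subunits have a second gene that is known from heart, muscle, lung or testis. Cox6b2, Cox7b2, Cox8b and Cox8c were listed at 0 in all 6 libraries. Cox4i2, the lung form of subunit 4, was below the filter with 0.160, 0.218 and 0.281 FPKM in M, against 0.318, 0.355 and 0.295 FPKM in control libraries. Ndufa4l2, a hypoxia-inducible relative of the complex IV subunit Ndufa4, had 0.503, 0.480 and 0.510 FPKM in M, against 0.285, 0.163 and 0.216 FPKM in control libraries. Its groups did not overlap, and with no filter it was called higher in M (log2 fold change 0.30, adjusted p = 0.00293), at a level of 0.845% of the summed Ndufa4 and Ndufa4l2 in M and 0.349% in control libraries. Cox7a1, the muscle form of subunit 7a, was low, with 2.89, 3.54 and 2.55 FPKM in M, against 2.56, 2.68 and 2.97 FPKM in control libraries. The general form Cox7a2 had 81.4, 85.6 and 85.4 FPKM in M, against 85.6, 84.8 and 85.4 FPKM in control libraries, so both forms overlapped between groups. Ndufa4 had 58.2, 71.5 and 49.9 FPKM in M, against 80.4, 54.4 and 54.3 FPKM in control libraries, also overlapping. Cox6a2, the muscle form of subunit 6a, had 17.8, 18.5 and 19.8 FPKM in M, against 24.1, 17.9 and 23.3 FPKM in control libraries. It made up 14.3%, 14.6% and 15.5% of the summed Cox6a1 and Cox6a2 in M 1 to 3, against 16.9%, 17.4% and 16.3% in control 1 to 3. Cox6a2 was not called with all libraries (adjusted p = 0.187) but was lower in M without control 2 (0.00487).

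The ATP synthase had the lowest median among the nuclear parts of complexes I to V (-0.10), level with complex II to 2 decimals. Of its 15 nuclear genes, 1 was higher and 3 were lower in M, against 21.2% and 21.9% of all genes. Without control 2 these calls were kept, and Atp5c1, Atp5g2, Atp5h and Atp5k were also called lower, against 20.2% of all genes. A log2 fold change below 0 was found in 13 of them and in 50.9% of all tested genes. Atp5a1, the alpha subunit of the catalytic F1 head (ENSMUSG00000025428), had 259.7, 259 and 258 FPKM in M, against 302, 290.2 and 294 FPKM in control libraries. The 3 M libraries were nearly equal and all lower. It changed by -0.19 ± 0.0378 SE (adjusted p = 0.00512), but by 0.000932 with quantile normalization (0.989). Atp5b, the beta subunit that holds the catalytic sites, was the most abundant nuclear member, with 525, 511 and 528 FPKM in M, against 510.4, 499.6 and 514 FPKM in control libraries, and was not called (0.04, adjusted p = 0.494) except with quantile normalization (0.00718).

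Atp5j2, the membrane subunit f, had 18.3, 18.3 and 17.5 FPKM in M, against 26.2, 20.2 and 29.2 FPKM in control libraries. It had the lowest log2 fold change among nuclear members (-0.45 ± 0.124 SE, adjusted p = 0.0269), with the control libraries widely spread. It was not called without control 1 (0.0869), M 1 (0.0692), M 2 (0.0693) or M 3 (0.0863). Atp5k, the membrane subunit e, had 8.90, 7.05 and 5.70 FPKM in M, against 11.2, 7.14 and 10.6 FPKM in control libraries, overlapping at control 2 and not called with all libraries, though called lower in M without control 2. Atp5j, a subunit of the peripheral stalk, had 48.0, 49.8 and 50.8 FPKM in M, against 60.3, 51.5 and 57.3 FPKM in control libraries, with no overlap (-0.18, adjusted p = 0.0414). Atp5j was no longer called without control 1 (0.121), control 3 (0.107), M 1 (0.111), M 2 (0.0899) or M 3 (0.0670), with no filter (0.074) or from its most abundant transcript alone (0.316). A replicate block ended its call as well (0.0567).

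The 3 genes Atp5g1, Atp5g2 and Atp5g3 encode the same mature c subunit of the rotor ring behind different import sequences. Atp5g1 (ENSMUSG00000006057) had 27.0, 23.6 and 22.4 FPKM in M, against 20.9, 16.9 and 19.3 FPKM in control libraries. It was the only nuclear ATP synthase gene called higher (0.34 ± 0.0930 SE, adjusted p = 0.0222), and the call was lost without control 3 (0.0532), without M 1 (0.0539) or from its most abundant transcript alone (0.0940). Atp5g2 had 149, 161 and 150.1 FPKM in M, against 181, 146 and 169.8 FPKM in control libraries. Atp5g3 had 148, 141 and 137 FPKM in M, against 164, 152 and 153 FPKM in control libraries. Neither was called (adjusted p = 0.336 and 0.0546), but Atp5g2 was called lower in M without control 2 (0.0284). Atp5g3 was called lower without M 1 (0.0383), with quantile normalization (0.021) or with a replicate block (0.0379). Atp5g1 made up 8.33%, 7.24% and 7.24% of the summed c subunit FPKM in M 1 to 3, against 5.72%, 5.37% and 5.66% in control 1 to 3. Its share was higher in every M library, while the other two genes supplied most of the c subunit mRNA in both groups.

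Atp5s and Atp5sl match the symbol rule but are not structural subunits of the enzyme, and they were kept apart from complex V. Atp5sl had 10.01, 8.62 and 9.47 FPKM in M, against 12.6, 11.6 and 13.6 FPKM in control libraries, and was lower in M (-0.39 ± 0.0735 SE, adjusted p = 0.00372). It was not called from its most abundant transcript alone (0.0925). Atp5s had 4.25, 4.15 and 3.70 FPKM in M, against 3.86, 3.81 and 3.88 FPKM in control libraries, an overlap with no call.

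Promoter sequence was available from RefSeq (GRCm38.p6) for 67 of the 86 nuclear genes. Nuclear respiratory factor 1 (NRF1), GA-binding protein (GABP) and YY1 are textbook regulators of these genes, so the 250 bases before each gene start were searched on both strands for GCGC, any base, T and GCGC in a row (NRF1), CCGGAAG (GABP) and AAGATGGCG (YY1). The NRF1 letters were present in 13 of the 67 genes (19.4%) and in 5.84% of the 17492 protein-coding genes with a window. The GABP letters were present in 12 (17.9%), against 10.2% of all, and the YY1 letters in 1 (1.49%), against 0.840% of all. Among the 10 called lower with a window, 1 held NRF1 and 3 held GABP letters, and among the 52 tested and not called these counts were 12 and 8. Of the 2 called higher with a window, 0 held NRF1 letters and 1, Ndufb6, held GABP letters. A match is a description of the letters and not evidence of binding. The 120 bases before the start of the 3 genes called lower with matches and of Cox6a1, a gene for which control 2 stood apart, are shown on the gene's strand with matches in capitals.
Sdhd, chr9:50603850-50603969, minus strand, 1 NRF1 and 1 GABP match: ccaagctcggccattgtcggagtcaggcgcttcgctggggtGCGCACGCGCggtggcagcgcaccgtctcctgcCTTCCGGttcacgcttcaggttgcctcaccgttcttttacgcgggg
Uqcrh, chr4:116075071-116075190, minus strand, 1 GABP match: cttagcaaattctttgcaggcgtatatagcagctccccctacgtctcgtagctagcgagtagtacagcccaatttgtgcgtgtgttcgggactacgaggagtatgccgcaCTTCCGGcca
Atp5j, chr16:84834977-84835096, minus strand, 1 YY1 and 1 GABP match: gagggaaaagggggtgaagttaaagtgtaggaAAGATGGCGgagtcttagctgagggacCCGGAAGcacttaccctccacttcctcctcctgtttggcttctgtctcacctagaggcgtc
Cox6a1, chr5:115348959-115349078, minus strand, 1 NRF1 and 1 GABP match: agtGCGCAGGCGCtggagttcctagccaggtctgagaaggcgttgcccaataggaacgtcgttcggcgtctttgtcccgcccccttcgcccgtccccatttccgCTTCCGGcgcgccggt

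The 13 protein-coding genes of the mitochondrial genome are transcribed from both strands of the circular DNA as long precursors that are cut into messages. All 13 passed the filter, and 3 were called, all lower in M and all complex I genes (23.1% called, against 43.1% of all genes). Their median log2 fold change was -0.23, against -0.04 for the 80 nuclear genes tested. No test was made between these lists. The mitochondrial median was -0.39 without control 1, -0.42 without control 2, -0.42 without M 2 and -0.0966 without control 3. Without M 1 or without M 3 it lay within -0.42 to -0.0966.

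The 3 calls were mt-Nd4l, mt-Nd4 and mt-Nd2, which encode proton-pumping subunits of the membrane arm. mt-Nd4l had 352, 352 and 246 FPKM in M 1 to 3, against 540.0, 456 and 607 FPKM in control 1 to 3. All M values lay below all control values, with M 3 lowest and control 3 highest. It changed by -0.76 ± 0.177 SE (adjusted p = 0.0167). It was the lowest log2 fold change of all members. mt-Nd4, whose reading frame overlaps that of mt-Nd4l on the same message, had 533, 573 and 429 FPKM in M, against 789, 599 and 777 FPKM in control libraries (-0.49 ± 0.147, 0.0349). The calls of mt-Nd4l and mt-Nd4 therefore concern the same message and are not separate. mt-Nd2 had 168, 158 and 146 FPKM in M, against 216, 176 and 241 FPKM in control libraries (-0.41 ± 0.116, 0.0283). The groups were apart in each, but narrowly for mt-Nd4 and mt-Nd2, where control 2 was close to the M libraries.

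These calls depended on single libraries. No mitochondrial gene was called without control 1 or without control 3, 1 was called without M 3, and 6 were called without control 2. The adjusted p of mt-Nd4l was 0.0561 without control 1, 0.0519 without control 3 and 0.0641 with a replicate block. That of mt-Nd4 was 0.108 without control 1, 0.109 without control 3, 0.0685 without M 1 and 0.0724 without M 3. It was 0.142 with quantile normalization, 0.0595 in the fit of most abundant transcripts and 0.0871 with a replicate block. That of mt-Nd2 was 0.0875 without control 1, 0.0519 without control 3, 0.0696 without M 2 and 0.0870 without M 3, and 0.0524 in the fit of most abundant transcripts.

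The other complex I messages went unevenly. mt-Nd3 had 172, 247 and 156 FPKM in M, against 230.3, 255 and 373 FPKM in control libraries, where M 2 lay above control 1 and the other M libraries lay below all controls (-0.57 ± 0.260, adjusted p = 0.137). mt-Nd1 had 334, 362 and 322 FPKM in M, against 424, 304 and 486 FPKM in control libraries. mt-Nd5 had 292, 284 and 285 FPKM in M, against 329, 286 and 371 FPKM in control libraries, and in both control 2 was at or below the M libraries. Neither was called with all libraries (adjusted p = 0.334 and 0.123), and both were called lower in M without control 2 (0.00511 and 0.00906). mt-Nd6, the 1 mitochondrial mRNA encoded on the light strand, had 407, 428 and 414 FPKM in M, against 385, 366 and 454 FPKM in control libraries. Its log2 fold change was 0.06 ± 0.0791 SE (adjusted p = 0.589), against a median of -0.45 over the 6 heavy-strand mt-Nd genes. The labels do not state whether counting used strand, so reads of mt-Nd6 and of the opposite strand cannot be told apart.

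mt-Cytb, the only mitochondrial subunit of complex III, had 1090.1, 1114 and 1036 FPKM in M, against 1235, 1113 and 1304 FPKM in control libraries (-0.17 ± 0.0674, adjusted p = 0.0761). Control 2 lay among the M libraries, and without it mt-Cytb was called lower in M (0.0125), while quantile normalization turned the sign and called it higher (0.18, 0.0295). mt-Co1, the catalytic subunit of complex IV and the most abundant member of all, had 6337, 6681 and 6530.1 FPKM in M, against 6259, 6028 and 6818 FPKM in control libraries. The groups overlapped and the spread was narrow (0.03 ± 0.0637, 0.691).

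The other mitochondrial genes were spread widely within both groups. mt-Co2 had 837, 1267 and 709 FPKM in M, against 777, 987 and 1509 FPKM in control libraries. mt-Co3 had 3873, 3211 and 2175 FPKM in M, against 2169, 3374 and 3682 FPKM in control libraries, so its lowest library in each group was at about the same level. mt-Atp6 had 199, 222 and 135 FPKM in M, against 181, 178 and 394 FPKM in control libraries, and the overlapping mt-Atp8 had 281, 329.9 and 237 FPKM in M, against 279, 347 and 545 FPKM in control libraries. For both ATP synthase genes control 3 was far above the other control libraries. None of these 4 was called (adjusted p from 0.287 for mt-Atp8 to 0.996 for mt-Co3), apart from mt-Co3 with quantile normalization, which was lower in M (-0.48, 0.00943). The SE of their log2 fold changes ran from 0.281 for mt-Atp8 to 0.396 for mt-Atp6.

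**Figure D4:**
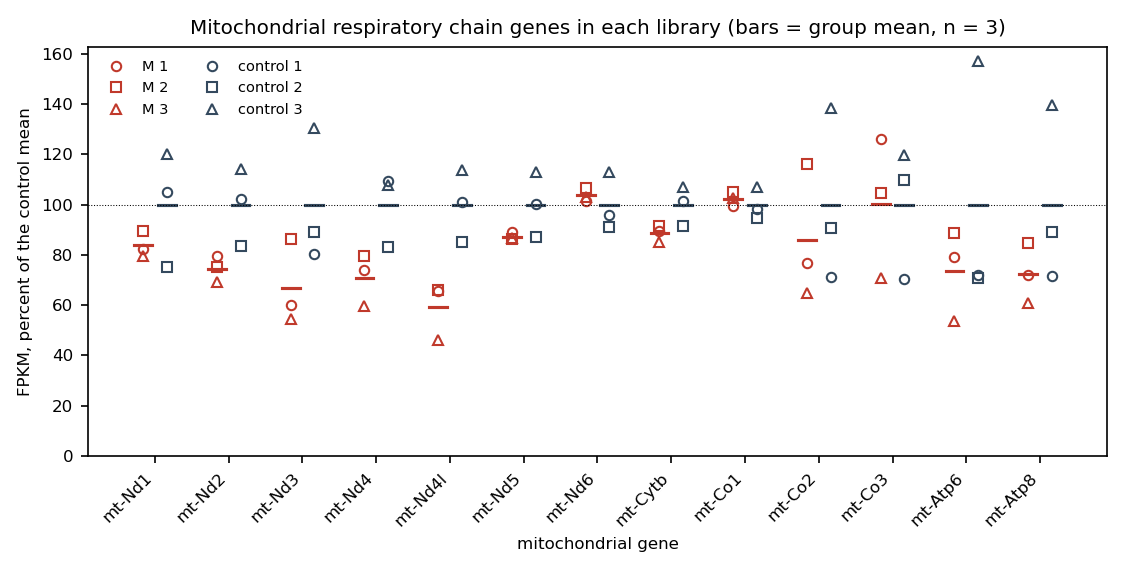
FPKM of the 13 mitochondrial genes in each library as percent of the gene's control mean, with M libraries in red on the left and control libraries in dark blue on the right of each gene and bars for group means. The M values of mt-Nd2, mt-Nd4 and mt-Nd4l lie below all control values, mt-Nd6 and mt-Co1 stay near 100 in both groups, and control 3 is the highest library for 11 of the 13 genes.

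Mitochondrial messages supplied most of the respiratory chain FPKM. They made up 69.5%, 70.3% and 66.7% of the members' summed FPKM in M 1 to 3, against 66.3%, 69.5% and 71.8% in control 1 to 3, with full overlap. In complex I the mitochondrial share was 59.3%, 61.4% and 56.7% in M, against 64.8%, 62.9% and 67.6% in control libraries, and there the groups did not overlap. In complex IV it was 85.3% ± 1.08 in M and 84.5% ± 2.17 in control libraries, and in complex V 18.4% ± 2.87 and 22.3% ± 6.62 (SD, n = 3 each).

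As a share of all mRNA FPKM, nuclear members held 1.71%, 1.69% and 1.71% in M 1 to 3, against 1.80%, 1.67% and 1.77% in control 1 to 3. Mitochondrial members held 3.91%, 4.01% and 3.41% in M, against 3.54%, 3.81% and 4.496% in control libraries. Both sets of values overlapped between groups. With each library left out in turn, the difference M minus control ran from -0.079 to -0.017 percentage points for nuclear members. For mitochondrial members it ran from -0.38 to 0.10, and for mitochondrial complex IV from -0.12 to 0.23. The sign of these mitochondrial differences therefore depended on the library left out. The mitochondrial complex I genes held 0.593%, 0.633% and 0.532% in M, against 0.747%, 0.642% and 0.847% in control libraries, where the groups were apart although M 2 and control 2 were close. Their difference ran from -0.21 to -0.11 percentage points with a library left out.

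**Figure D5:**
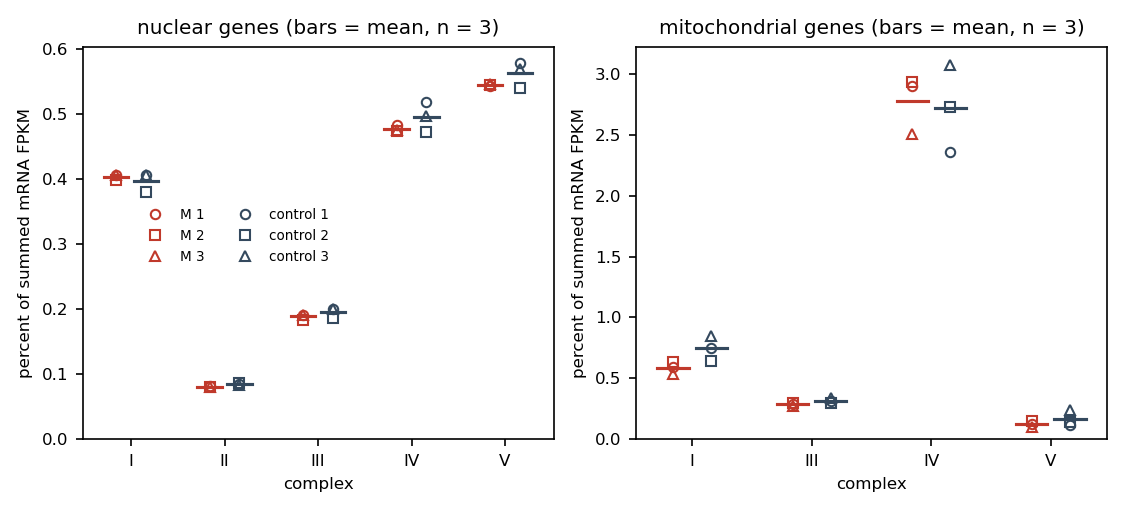
Percent of the summed mRNA FPKM held by each complex in each library, for nuclear genes on the left and mitochondrial genes on the right, with M libraries in red left of control libraries in dark blue and bars for group means. Complex IV takes the largest mitochondrial share (2.78% in M and 2.72% in control libraries), and only nuclear complex II and mitochondrial complex I show groups that do not overlap.

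Among 19 tested genes of coenzyme Q synthesis and of electron entry other than complexes I and II, 7 were higher and 3 lower in M, with a median of 0.05, where 21.2% and 21.9% of all genes were called. The higher ones included 3 genes of coenzyme Q synthesis or handling (Coq3, Coq9 and Coq10b). The lower ones were the coenzyme Q synthesis genes Pdss1 (-0.39, adjusted p = 0.00488) and Coq4 (-0.23, 0.0193) and the glycerol phosphate dehydrogenase Gpd2 (-0.18, 0.0184). Sqrdl, the sulfide oxidase that feeds coenzyme Q, had 26.1, 27.3 and 27.8 FPKM in M, against 13.1, 14.8 and 14.4 FPKM in control libraries (0.90 ± 0.0554 SE, adjusted p = 1.61e-05). Etfdh, which passes electrons of fatty acid oxidation to coenzyme Q, had 32.3, 34.1 and 32.4 FPKM in M, against 23.6, 22.9 and 25.01 FPKM in control libraries (0.45 ± 0.0468, 1.96e-04). Its electron donor subunit Etfb rose by 0.46 (0.00328), and Coq3, a methyltransferase of coenzyme Q synthesis, by 0.61 (0.00045). The groups were apart in all 4, and the Etfb call was lost from its most abundant transcript alone (0.0886).

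Of 9 tested subunits and partners outside the symbol rule, 1 was higher and 2 were lower, against 21.2% and 21.9% of all genes. Their median was 0.06. Slc25a5, an ADP/ATP carrier of the inner membrane, had 412, 415 and 398 FPKM in M, against 532, 528 and 546 FPKM in control libraries (-0.39 ± 0.0413 SE, adjusted p = 2.18e-04). Its relative Slc25a4 changed by -0.29 (0.00592). Ucp2, an inner membrane carrier of the uncoupling protein family, had 188, 186 and 184 FPKM in M, against 131, 135 and 132 FPKM in control libraries (0.49 ± 0.0356, 3.40e-05). These 3 calls held in all 14 alternative settings.

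Assembly factors were mostly not called. Over all tested genes 21.2% were called higher and 21.9% lower. For complex I, 4 of 16 tested were higher and 0 lower (median 0.05). They were Timmdc1 (0.26, adjusted p = 0.00569), Tmem126a (0.41, 0.0153), the iron-sulfur carrier Nubpl (0.24, 0.0256) and Ndufaf7 (0.20, 0.0443). Timmdc1 was called in all 14 alternative settings, while the Tmem126a call was lost without control 1 (0.0528) or control 3 (0.0518). Nubpl was not called without control 2 (0.0746), control 3 (0.0627), M 1 (0.0501), M 2 (0.0565) or M 3 (0.0796). Ndufaf7 was not called without control 1 (0.0891), control 2 (0.120), control 3 (0.0588), M 1 (0.0973) or M 3 (0.136). Nor was it called with no filter (0.0614) or in the fit of most abundant transcripts (0.0730).

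For complexes II to V, 1 of 37 assembly factors was higher and 2 were lower (median 0.02), against 21.2% and 21.9% of all genes. Ttc19, a complex III factor, rose by 0.26 (adjusted p = 0.0101). The ATP synthase factor Atpaf2 (-0.18, 0.0380) lost its call without control 2 (0.108), control 3 (0.0974), M 1 (0.0636), M 2 (0.0747) or M 3 (0.110). Its call was also lost with no filter (0.0566), quantile normalization (0.0751) or a replicate block (0.0561). The same held after rescaling without mitochondrial transcripts (0.0841) and in the fit of most abundant transcripts (0.0615). The complex IV factor Cmc2 (-0.32, 0.0493) lost its call without control 1 (0.105), control 3 (0.0983), M 1 (0.0648), M 2 (0.126) or M 3 (0.138). Cmc2 was also not called with a pseudocount of 5 (0.0527), no filter (0.0871), quantile normalization (0.0672) or a replicate block (0.0544).

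Of 21 tested genes for mitochondrial DNA upkeep and transcription, 1 was higher and 2 lower, with a median of 0.00. Over all genes 21.2% were called higher and 21.9% lower. Mterf3, a repressor of mitochondrial transcription, rose to 23.6 ± 2.47 FPKM in M, against 18.6 ± 1.20 FPKM in control libraries (0.32 ± 0.0806 SE, adjusted p = 0.0144), with no call without M 3 (0.0518). The helicase Peo1 (-0.26, 0.0282) and the polymerase subunit Polg2 (-0.21, 0.0415) were lower. The Peo1 call was lost without control 2 (0.0746), control 3 (0.0812), M 2 (0.0599) or M 3 (0.0733), and that of Polg2 without any library but M 1 (adjusted p from 0.0733 without control 1 to 0.121 without M 3). Both calls were also lost in the fit of most abundant transcripts (0.0578 and 0.0648) and with a replicate block (0.0549 and 0.0783). That of Polg2 was further lost with quantile normalization (0.0584) and after rescaling without mitochondrial transcripts (0.0655). Tfam, which packages mitochondrial DNA, and the RNA polymerase Polrmt had log2 fold changes of -0.03 and 0.02.

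Among 11 tested regulators of mitochondrial biogenesis, 2 were higher and 1 lower (median -0.01), against 21.2% and 21.9% of all genes. Ppargc1a, the coactivator PGC-1 alpha, was listed at 0 in all 6 libraries. Its relative Ppargc1b had 9.28, 9.66 and 9.13 FPKM in M, against 11.6, 11.4 and 11.6 FPKM in control libraries (-0.28 ± 0.0467 SE, adjusted p = 0.00232). Prkaa1, the catalytic subunit of AMP-activated kinase, rose by 0.41 (0.00120), and Myc rose to 2.39 ± 0.434 FPKM in M, against 0.356 ± 0.110 FPKM in control libraries (9.71e-05). With a control mean below 1 FPKM, Myc passed the filter on low values only through its M libraries, which limits its place in the count. Nrf1 and Gabpa, whose motifs were searched above, were not called (adjusted p = 0.0923 and 0.813).

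Of 25 genes of mitochondrial import, membrane and shape, 4 were higher and 3 lower (median -0.06), against 21.2% and 21.9% of all genes. The chaperone Hspa9 had 274, 283 and 297 FPKM in M, against 218, 220.4 and 230.01 FPKM in control libraries (0.35 ± 0.0466 SE, adjusted p = 6.71e-04). The protease Lonp1 (0.35, 0.00320) and the outer membrane channel Vdac3 (0.32, 0.00278) also rose, and the import receptor Tomm22 fell by 0.30 (9.47e-04). Citrate synthase (Cs), often used as a measure of mitochondrial content, averaged 129 FPKM in M and 132 FPKM in control libraries and was not called (-0.03, adjusted p = 0.541).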

How the data were processed

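The authors deposited FPKM per transcript for 6 libraries, made from total RNA with a TruSeq kit per the labels' protocols. Per the submitters' processing notes, mm9 was the genome build. The labels name no aligner, quantifier, annotation or filter. FPKM carry no counts, so depth is unknown and no counting interval is given. The deposited lncRNA table was not used. Transcripts sharing a symbol were summed, genes with a mean of 1 FPKM or more were kept, and log2(FPKM + 1) was fitted with limma 3.58.1 in R 4.3.3 (group only, eBayes with trend and robust, two-sided). Adjusted p-values (Benjamini-Hochberg) cover the 10390 genes kept, with a threshold of 0.05. Fold changes are M minus control on that scale, which understates changes of low genes. Scripts were tested on simulated data. An exact permutation test of 3 against 3 cannot go below p = 0.1, so none was used.

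Members and lists were chosen with earlier results of these data known. Values in every library were to be given for members called, the 2 most abundant, 2 highest and 2 lowest of each complex, all mitochondrial members and tissue isoforms; of other lists, up to 4 called genes. A result that falls under this rule is not reported here. Ndufa4 was placed in complex IV. Overlapping mitochondrial genes (mt-Nd4l and mt-Nd4, mt-Atp8 and mt-Atp6) and genes with near-identical processed pseudogenes, such as Cycs, may share reads. The alternatives were other pseudocounts, no filter, other scalings, the most abundant transcript only, a replicate block and leaving out each library.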

Additional observations from a re-analysis of the deposited data

How the results depend on the processing

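Most values kept their direction. The 19 called members kept theirs in all 14 alternatives, except Atp5a1 with quantile normalization (0.000932). With only the most abundant transcript of each gene, 11 members were called, 10 nuclear and 1 mitochondrial. Leaving out each library in turn gave 11 to 30 members called, 10 to 24 nuclear and 0 to 6 mitochondrial, with medians of -0.10 to -0.0175 (nuclear) and -0.42 to -0.10 (mitochondrial), and 3683 to 4284 of all genes. Quantile normalization turned the sign of Cox4i1 (0.10), Cox6a1 (-0.0390), mt-Co2 (0.0477), mt-Co3 (-0.48), mt-Cytb (0.18) and Sdhc (-0.00336), and left mt-Co1 at 0. Rescaling to a common total without mitochondrial transcripts turned Cox7a2 (0.00765). The most abundant transcript alone turned Sdhc (-0.0196), Adgre1 (-0.0923) and Zbtb46 (0.0440). Leaving out a library turned 14 values of members, giving ranges of -0.14 to 0.10 for Cox6a1, -0.00529 to 0.17 for Cox7a1, -0.0325 to 0.00370 for Cox7a2, -0.20 to 0.12 for Ndufa4, -0.00194 to 0.0249 for Sdhc, -0.00142 to 0.20 for Uqcrb, -0.56 to 0.0146 for mt-Atp6, -0.00403 to 0.0848 for mt-Co1, -0.45 to 0.0540 for mt-Co2, -0.23 to 0.23 for mt-Co3 and -0.00647 to 0.15 for mt-Nd6, and of -0.10 to 0.0369 for the dendritic cell marker Zbtb46. Calls of the 19 members were lost 37 times when a library was left out and 22 times under other settings, and calls of named genes in the other lists 32 and 22 times. The causes were not tested.

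Deviations of same-numbered libraries had correlations over all genes of 0.07, 0.01 and -0.03, and those of differently numbered libraries ran from -0.07 to 0.07. With 3 libraries per group these values cannot settle whether the numbers pair the libraries. With a replicate block 16 members were called, 1 of them mitochondrial (mt-Nd2). The calls of mt-Nd4l (adjusted p = 0.0641), mt-Nd4 (0.0871), Ndufb11 (0.0572) and Atp5j (0.0567) were lost, and Atp5g3 was called (0.0379). FPKM hold no read numbers, so the limit set by depth is not known.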
